A study of Mus musculus with 4 samples.

Results

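The genes of mitochondrial carbon oxidation were followed in heart muscle cells after pressure overload: the pyruvate dehydrogenase complex with its kinases and phosphatases, the tricarboxylic acid (TCA) cycle, the malate-aspartate shuttle, and the enzymes that degrade branched-chain amino acids and ketone bodies. The genes were chosen by symbol from the deposited tables. All 37 were found among 22322 genes, in 38 rows, because Nnt has 2 gene models with that symbol. All 38 rows were among the 12499 genes that passed a filter on low counts and were tested. The libraries came from cardiomyocytes of male mice operated at 2 months and killed 14 weeks later. In the TAC group (2 libraries) the aorta was narrowed by transverse aortic constriction, which loads the left ventricle with pressure, and in the sham group (2 libraries) the operation was done without the narrowing. Each library came from a part of the cardiomyocytes of 1 heart, released by enzyme perfusion through the coronary vessels. The sources used here do not give the mouse strain.

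In a cardiomyocyte, pyruvate, fatty acids, ketone bodies and branched-chain amino acids converge on acetyl-CoA or on intermediates of the TCA cycle, whose NADH and FADH2 feed the respiratory chain. A pair of entry points is switched by reversible phosphorylation. Pyruvate dehydrogenase is turned off by the kinases Pdk1, Pdk2, Pdk3 and Pdk4 and turned on by the phosphatases Pdp1 and Pdp2, and the branched-chain keto acid dehydrogenase is turned off by Bckdk and turned on by the mitochondrial phosphatase Ppm1k. The heart takes up ketone bodies from the blood and oxidises them through Bdh1, Oxct1 and Acat1.

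The libraries held 24237777 to 32118323 counts. The 13 protein-coding mitochondrial genes took 39.84% to 40.85% of the counts in the sham libraries and in TAC 2, and 47.42% in TAC 1. CPM below means counts scaled to a common library size by TMM, which sets the libraries level on the bulk of the genes and gave TAC 1 a factor of 0.8683 against 1.009 to 1.097 in the others. The cardiomyocyte label was borne out by the level of its 15 markers, which summed to 80985 to 90171 CPM in the 4 libraries. Having counts did not set them apart, because every marker of the other lists had counts too. Markers of 5 other cell types were far lower, and the endothelial, fibroblast and mural sums were lower in both TAC libraries. The endothelial list summed to 2556 and 2489.5 CPM in sham against 2014 and 2242 in TAC, and the fibroblast list to 563 and 393 against 218 and 308. The mural list summed to 776 and 814 CPM in sham against 447 and 591 in TAC, and the macrophage list to 175 and 87.6 against 47.2 and 87.8. The macrophage sums of sham and TAC overlapped, and so did those of the red blood cell list, at 84.9 and 73.7 CPM in sham and 49.9 and 125 CPM in TAC. All 57 tested markers of these 4 lists had a negative log2 fold change, 10 of them called lower, and none was at 0. The list medians were −0.90 to −0.62 on the log2 scale, and the cardiomyocyte list had a median of 0.11 (−0.07 on library totals). Their part in the results that follow was not tested. In bulk libraries, fewer cells of a type and less RNA per cell cannot be told apart.

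In the TAC group, 2 enzymes of this network rose and 2 phosphatases fell, while the other 34 rows did not pass the test. Both rises lost their call on counts scaled by library totals and on deposited FPKM, and both falls kept theirs. The ketone body enzyme Bdh1 and the mitochondrial NADP-dependent isocitrate dehydrogenase Idh2 rose by 0.64 ± 0.11 and 0.42 ± 0.09 on the log2 scale (± SE, n = 2 against 2), and Ppm1k and Pdp1 fell by 0.60 ± 0.08 and 0.55 ± 0.09. Calls were made at a Benjamini-Hochberg adjusted p under 0.05 in edgeR's quasi-likelihood test over all genes tested. The 2 rises and the 2 falls each made up 5.26% of the 38 rows, where 2.58% of all genes were called higher and 2.43% lower. At an unadjusted edgeR p under 0.05 there were 12 rows (31.6%), beside 27.5% of all genes. The members lie at higher levels than most genes, and these shares were not matched for level.

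The bulk of the enzymes moved little. Over the 38 rows the median log2 fold change was 0.11, beside −0.01 for all genes tested, and the median size of the change was 0.15, beside 0.22. The comparison was not matched for level, with a median FPKM of 146 for the members and 3.9 for all genes tested. On the TMM scale, 31 rows had a positive and 7 a negative log2 fold change, and on counts scaled by library totals, which the study names as its scaling, 6 were positive and 32 negative, so the sign of most members rests on the scaling. Both TAC libraries lay above both sham libraries in 25 rows (65.8%) and below them in 4 (10.5%) on the TMM scale, where 29.8% and 30.3% of all genes did so. On library totals the counts were 2 rows above and 15 below, where 8.74% and 47.7% of all genes did so. Scaling by totals moved the median of all genes to −0.20 and that of the members to −0.08. Relative to the median of all genes, the members' median was 0.11 higher on the TMM scale and 0.12 higher on totals. On deposited FPKM it was 0.04 higher with a pseudocount of 1 and 0.10 higher with a pseudocount of 0.1.

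**Figure D1:**
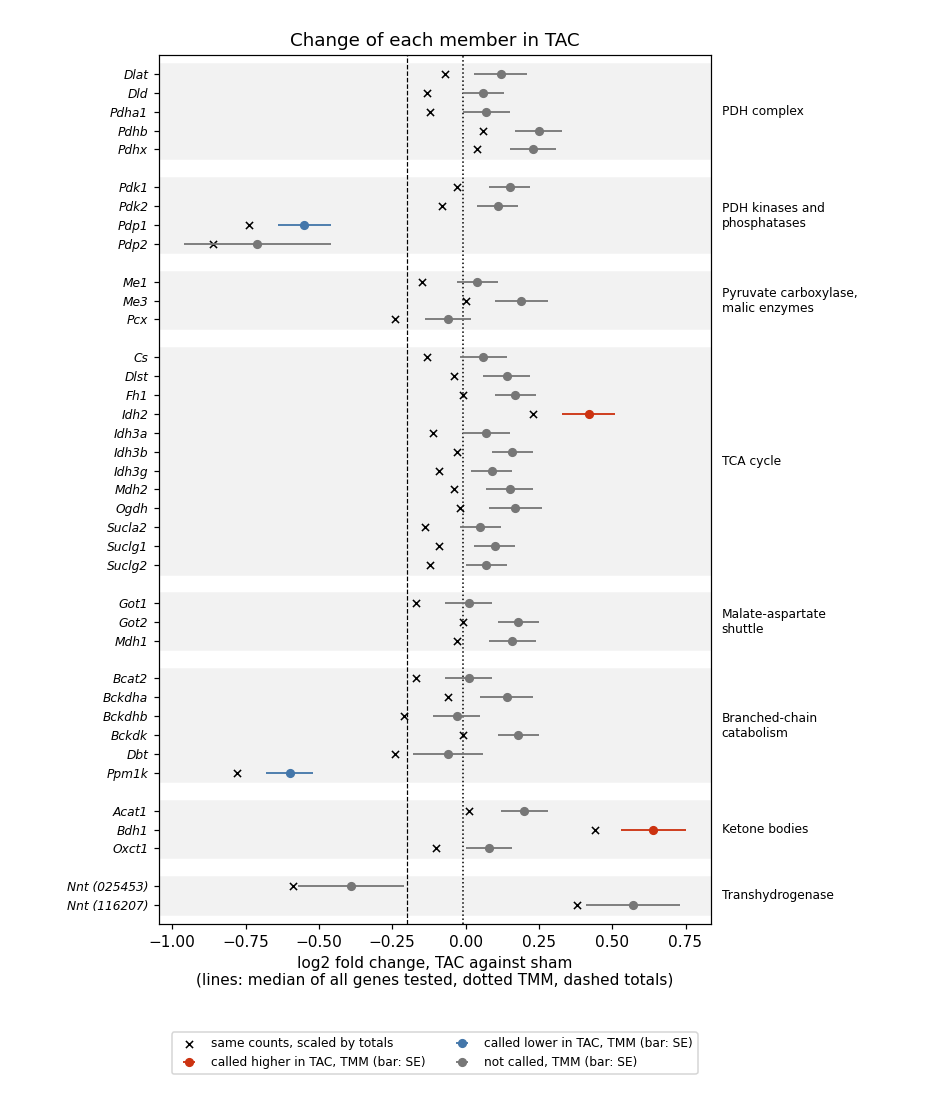
The x axis gives the log2 fold change of TAC against sham for each member by role; circles with SE bars are TMM-scaled counts in edgeR, crosses the same counts scaled by library totals, and vertical lines the median of all genes tested (dotted TMM, dashed totals). Most enzymes lie within 0.20 of 0 on the TMM scale, Bdh1 and Idh2 lie to the right, and Pdp1, Pdp2 and Ppm1k lie to the left under both scalings.

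The members were among the most abundant messages of the cell. In deposited FPKM, which allows for transcript length, their median over the 4 libraries was 146, beside 3.9 for all genes tested, and 26 of 38 rows lay in the top 5% of genes. Mdh1 (851 FPKM), Idh2 (838 FPKM), Mdh2 (644 FPKM) and Ogdh (534 FPKM) had the highest means, and Idh2 lay above Mdh1 in both TAC libraries. The 3 phosphatases were among the lowest members, at 6.31 to 13.9 FPKM, and the 3 kinases lay at 32.3 to 149 FPKM. Pdha1, the subunit that the Pdk and Pdp enzymes modify, lay at 377 FPKM. The lowest of the enzymes was pyruvate carboxylase, Pcx, which refills oxaloacetate, at 7.25 FPKM.

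**Figure D2:**
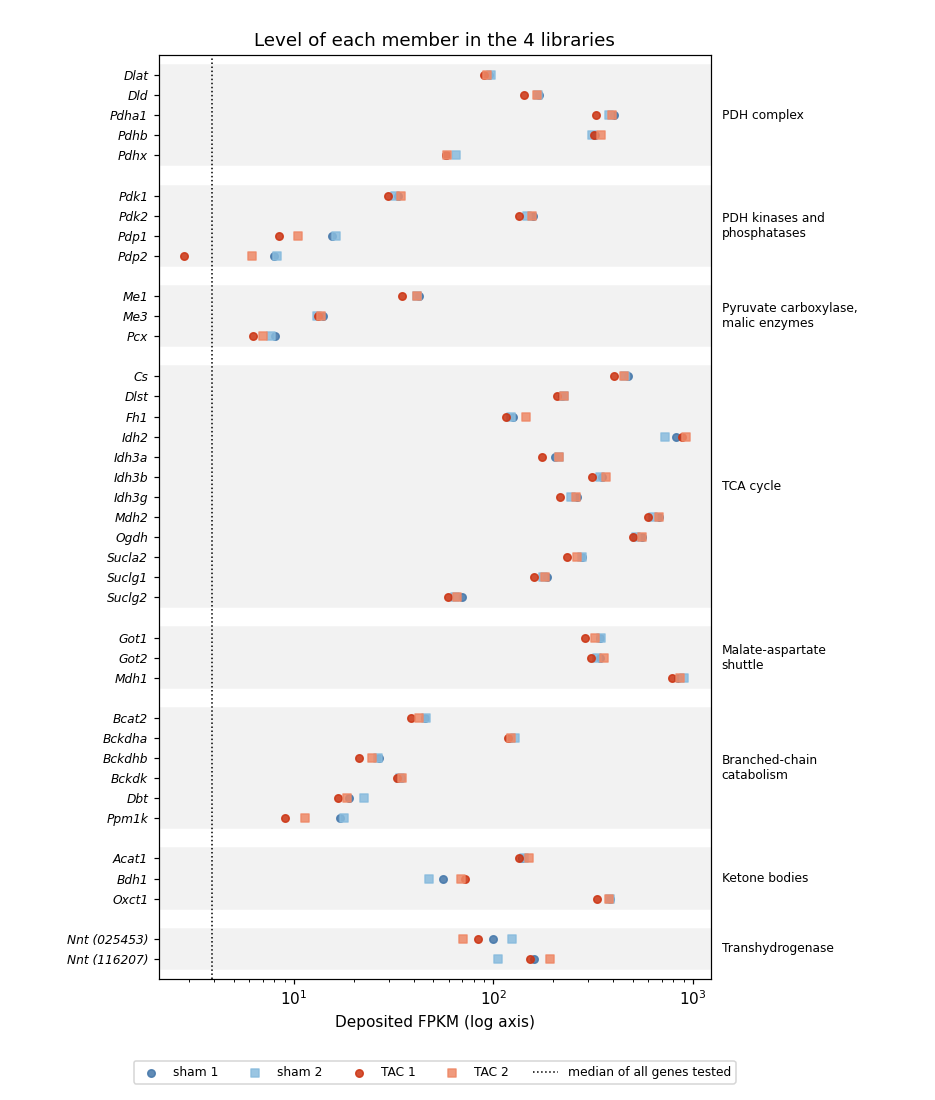
The x axis (log) gives the deposited FPKM of each member in each library, grouped by role, with circles for replicate 1 and squares for replicate 2. TCA cycle and shuttle enzymes sit between 59.3 and 920.2 FPKM, phosphatases below 20 FPKM, and the dotted line marks the median of all genes tested, 3.9 FPKM.

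The promoter sequences of the called genes are given because these are the members whose message moved. They come from RefSeq (GRCm38.p6) and show the bases before the annotated start, 5′ to 3′ on the gene's strand, up to the first base of a GENCODE exon. RefSeq windows of 300 bases were found for 32 of the 37 genes, 44 windows in all, and not for Pdp1, Dbt, Nnt, Idh3a and Acat1. Ppm1k is read from the minus strand of chr6:57535488-57535737, Idh2 from the minus strand of chr7:80115393-80115600, and the 2 starts of Bdh1 from the plus strand of chr16:31422047-31422279 and chr16:31428503-31428747.
Ppm1k: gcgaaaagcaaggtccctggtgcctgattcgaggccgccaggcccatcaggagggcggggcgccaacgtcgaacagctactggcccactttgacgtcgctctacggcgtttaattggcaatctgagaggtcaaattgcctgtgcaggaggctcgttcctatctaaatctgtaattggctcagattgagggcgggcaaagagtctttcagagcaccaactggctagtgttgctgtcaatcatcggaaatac
Idh2: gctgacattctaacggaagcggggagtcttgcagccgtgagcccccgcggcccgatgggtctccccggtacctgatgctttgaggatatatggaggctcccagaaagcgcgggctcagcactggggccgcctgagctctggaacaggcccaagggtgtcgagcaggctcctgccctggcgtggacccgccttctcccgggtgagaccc
Bdh1, outer start: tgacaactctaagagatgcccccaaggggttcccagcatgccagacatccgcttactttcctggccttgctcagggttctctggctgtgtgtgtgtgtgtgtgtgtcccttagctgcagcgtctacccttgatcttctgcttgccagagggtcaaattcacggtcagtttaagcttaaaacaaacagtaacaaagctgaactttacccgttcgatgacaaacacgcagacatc
Bdh1, inner start: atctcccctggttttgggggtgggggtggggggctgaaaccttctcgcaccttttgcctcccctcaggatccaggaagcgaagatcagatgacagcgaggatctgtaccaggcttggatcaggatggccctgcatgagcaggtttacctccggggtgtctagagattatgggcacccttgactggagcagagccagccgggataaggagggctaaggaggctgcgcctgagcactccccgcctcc
The windows were searched on both strands for AAGGTCA, the half-site bound by estrogen-related receptors, and for the palindrome-like motif of nuclear respiratory factor 1 (GCGCA, any base, GCGC). These factors are known to regulate mitochondrial genes. The full windows of Ppm1k, Idh2 and Bdh1 hold neither run of letters, so no capitals stand in them.

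Matches occurred at 4 other members. AAGGTCA was found in 2 of 44 member windows (4.55%), beside 4.72% of all 32851 windows of that length, and the nuclear respiratory factor 1 motif in 2 of 44 (4.55%), beside 4.60%. The member windows were richer in G and C, with a median of 59.7% against 52.7% in all windows. The matches are shown with up to 10 bases on either side and the motif in capitals, on its own strand of the gene, at chr19:43524834-43524855 for Got1 (minus), chr11:6292155-6292181 for Ogdh (plus, 1 of its 6 windows), chr14:73552759-73552788 for Sucla2 (plus) and chr12:31351422-31351442 for Dld (minus).
Got1: cccagAAGGTCAggaggttgtc
Ogdh: gacacggcgcTGACCTTggtgcctgcg
Sucla2: ctgcgtctctGCGCCTGCGCggtgcccagg
Dld: cgtatatgttGCGCAGGCGCa
None of these 4 genes was called. Their log2 fold changes were 0.01 for Got1, 0.17 for Ogdh, 0.05 for Sucla2 and 0.06 for Dld.

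The pyruvate dehydrogenase complex turns pyruvate into acetyl-CoA. None of its 5 subunit genes was called, and their log2 fold changes ran from 0.06 to 0.25. Pdhb, the beta subunit of the first enzyme, moved most on the TMM scale. It had 449 and 455 CPM in the sham libraries and 558 and 519 CPM in the TAC libraries (replicate 1 first, here and below). Its TAC libraries lay above its sham libraries, at a log2 change of 0.25 ± 0.08 (edgeR adjusted p = 0.0935). It passed with DESeq2 (adjusted p = 0.0462) and was 0.06 on library totals, where Dld (−0.13) and Pdha1 (−0.12) moved further. Pdha1, the catalytic and phosphorylated subunit, is the most abundant by length and stood at 1046 CPM in both sham libraries, 1079 in TAC 1 and 1117 in TAC 2. The log2 fold change of Pdha1 was 0.07 ± 0.08 (edgeR adjusted p = 0.592).

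Of the 2 phosphatases that switch this complex on, Pdp1 was called lower and Pdp2 was not called. Pdp1, the calcium-stimulated phosphatase of muscle (ENSMUSG00000049225, minus strand of chr4:11958184-11966452, GRCm38), was at 40 and 43.0 CPM in the sham libraries and at 27.7 and 29.0 CPM in the TAC libraries. The groups did not overlap and the 2 libraries of each lay close together. Pdp1 fell by 31.8%, a log2 change of −0.55 ± 0.09 (edgeR adjusted p = 0.0200). It was called in all 15 settings tried (the reported one and 14 alternatives), at −0.75 to −0.49. Among the alternatives, a fit with both Nnt rows summed and a pairing with crossed replicate numbers were added after the data had been seen. Pdp2, the calcium-insensitive relative of Pdp1, was at 41.4 and 45.3 CPM in sham, at 18.5 CPM in TAC 1 and at 34.8 CPM in TAC 2. Both TAC libraries lay below both sham libraries, but they were far apart from each other, TAC 1 being the lowest. The log2 fold change of Pdp2 was the most negative of all members, −0.71 ± 0.25, and did not pass the test (edgeR adjusted p = 0.121). Pdp2 was at −1.23 without TAC 2, −0.77 without sham 1, −0.64 without sham 2 and −0.32 without TAC 1. Without TAC 1 it was no longer the most negative member, with ENSMUSG00000025453 of Nnt at −0.66, Ppm1k at −0.55 and Pdp1 at −0.52. Pdp2 passed with the replicate number as a block (−0.77, edgeR adjusted p = 0.0287) and without the filter on low counts (−0.71, edgeR adjusted p = 0.0107).

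The kinases that switch the complex off were not called. Pdk2, the most abundant kinase among the members, was at 323 and 321 CPM in sham and at 348 and 347 CPM in TAC, a log2 change of 0.11 ± 0.07 (edgeR adjusted p = 0.342). Pdk1, a kinase known as a target of hypoxia signalling, was at 157 and 161 CPM in sham and at 176 and 177 CPM in TAC, a log2 change of 0.15 ± 0.07 (edgeR adjusted p = 0.199). Both kinases had non-overlapping groups on the TMM scale, by small margins, and turned to −0.08 and −0.03 on library totals. A ratio of counts within a library is free of its scaling. The count ratio of Pdk2 to Pdp1 was 8.08 and 7.45 in sham and 12.6 and 12 in TAC, a mean 1.58 times higher in TAC with no overlap. On the FPKM scale the same ratio was 10.1 and 9.16 in sham against 16 and 14.9 in TAC. Smaller shifts of a count ratio also came without overlap, at 0.903 times for Me1 to Me3 and 0.917 times for Pcx to Pdha1.

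**Figure D3:**
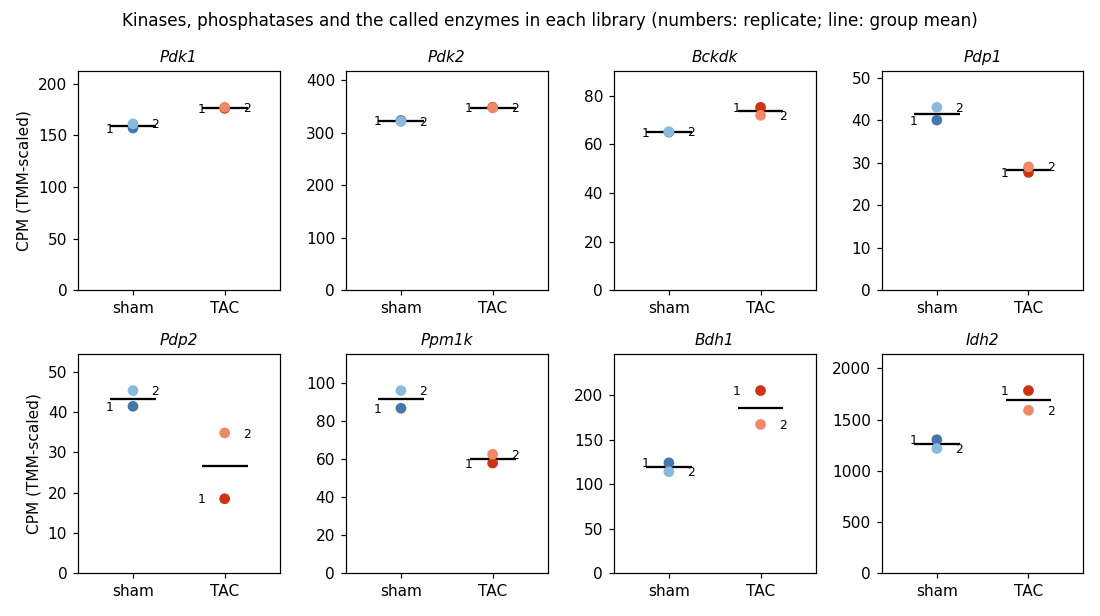
Each panel gives the TMM-scaled CPM (from 0) of a kinase (Pdk1, Pdk2, Bckdk), a phosphatase (Pdp1, Pdp2, Ppm1k) or a called enzyme (Bdh1, Idh2) in the 4 libraries, numbered by replicate, with a line at each group mean. The phosphatases are lower in both TAC libraries, with Pdp2 at 18.5 CPM in TAC 1 and 34.8 in TAC 2, while the kinases differ by 12.9% or less.

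Branched-chain amino acids are first transaminated by Bcat2 and then oxidised by the dehydrogenase built from Bckdha, Bckdhb, Dbt and the shared subunit Dld. Bcat2, Bckdha, Bckdhb and Dbt had log2 fold changes of −0.06 to 0.14 and overlapping groups in 4 of 4. Bckdha, the phosphorylated subunit and the most abundant of the 6 branched-chain genes at 123 FPKM, was at 211 and 234 CPM in sham and at 259 and 229.9 CPM in TAC (log2 fold change 0.14 ± 0.09). Its exons share 61.7% of their bases with B3gnt8 on the opposite strand, a gene with 5.13 to 16.17 counts per library against 5620.82 to 7228.87 for Bckdha, and the sources used here do not give the use of strand in the counting.

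Ppm1k, the phosphatase that activates the branched-chain dehydrogenase (ENSMUSG00000037826, minus strand of chr6:57506502-57535468, GRCm38), was at 86.8 and 96.1 CPM in sham and at 58.0 and 62.6 CPM in TAC. The groups were well apart, and the spread within each was small beside the distance between them. Ppm1k fell by 34.1%, a log2 change of −0.60 ± 0.08 (edgeR adjusted p = 0.0149), and was called in all 15 settings, at −0.79 to −0.52. Bckdk, the kinase that opposes it, was at 65.0 and 65.2 CPM in sham and at 75.2 and 71.9 CPM in TAC. The log2 fold change of Bckdk was 0.18 ± 0.07 (edgeR adjusted p = 0.172), and −0.01 on library totals. There were fewer counts of Bckdk than of Ppm1k in the sham libraries and more in the TAC libraries. The count ratio of Bckdk to Ppm1k was 0.749 and 0.679 in sham and 1.3 and 1.15 in TAC, a mean 1.71 times higher in TAC. Per length, Bckdk was the higher of them in every library, at 1.89 to 2.01 times the FPKM of Ppm1k in sham and 3.06 to 3.65 times in TAC. The count ratio of Bckdk to its substrate Bckdha, by contrast, overlapped between the groups (0.308 and 0.278 in sham, 0.290 and 0.313 in TAC).

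**Figure D4:**
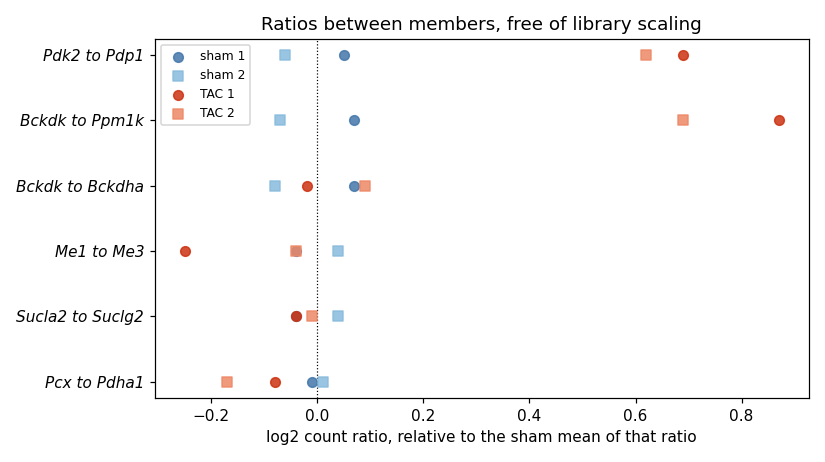
The x axis gives the log2 count ratio of 6 pairs of members in each library, with the sham mean of that pair set to 0. The Pdk2 to Pdp1 and Bckdk to Ppm1k ratios are 0.66 and 0.78 higher in TAC with both TAC libraries far to the right. The other pairs differ by 0.15 or less, and among them Me1 to Me3 and Pcx to Pdha1 also have groups that do not overlap.

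As a group, the 3 phosphatases had a median log2 fold change of −0.60 on the TMM scale and −0.78 on library totals, with the TAC libraries below the sham libraries in all 3 (30.3% of all genes on the TMM scale and 47.7% on totals) and 2 called (2.43% of all genes called lower). The medians of the endothelial, fibroblast, mural and macrophage lists were −0.90 to −0.62 on the TMM scale. The 3 kinases had a median of 0.15 on the TMM scale and −0.03 on totals, and none was called. The 30 enzyme genes other than Nnt had a median of 0.11 on the TMM scale and −0.08 on totals, with 26 within 0.20 of 0 on the TMM scale and 2 called.

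Ketone body oxidation starts with Bdh1, which turns beta-hydroxybutyrate into acetoacetate. Bdh1 (ENSMUSG00000046598, plus strand of chr16:31422280-31458901, GRCm38) was at 124 and 114 CPM in sham and at 205 and 167 CPM in TAC. Both TAC libraries lay above both sham libraries, and TAC 1 was the highest. Bdh1 rose by 56.1%, a log2 change of 0.64 ± 0.11 (edgeR adjusted p = 0.0245). It was called in 12 of 15 settings and had a positive sign in all of them (0.44 to 0.79). The call was lost on library totals (0.44, edgeR adjusted p = 0.0667) and on deposited FPKM. An antisense gene, Gm15743, overlaps 13.7% of the exonic bases of Bdh1. The next enzyme, Oxct1, which activates acetoacetate with succinyl-CoA, was at 1229.6 and 1299 CPM in sham and at 1349 and 1331 CPM in TAC (log2 fold change 0.08 ± 0.08). It was the most abundant of the 3 by length (371 FPKM). Acat1, which splits acetoacetyl-CoA, had a log2 change of 0.20 ± 0.08 (edgeR adjusted p = 0.157). Neither of these later enzymes was called.

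Of the 12 TCA cycle genes among the members, 1 was called. The 12 are not the whole cycle. Succinate dehydrogenase was counted with the further pathway genes, where Sdha, Sdhb, Sdhc and Sdhd had log2 fold changes of 0.06 to 0.19 on the TMM scale and −0.13 to −0.01 on library totals, and were not called. Idh2, which makes NADPH in the mitochondrial matrix (ENSMUSG00000030541, minus strand of chr7:80094846-80115392, GRCm38), was at 1304 and 1218 CPM in sham and at 1783 and 1591 CPM in TAC. The groups did not overlap. Idh2 rose by 33.8%, a log2 fold change of 0.42 ± 0.09, just inside the threshold (edgeR adjusted p = 0.0495). The sign was positive in all 15 settings, but the call held in 7 of them. Those 7 include the reported fit and both fits that were added after the data had been seen. On library totals the log2 fold change of Idh2 was 0.23 (edgeR adjusted p = 0.286). The adjusted p was 0.06 without sham 1, 0.13 without sham 2 and 0.142 without TAC 1 (edgeR), and 0.0768 with the replicate block. The NAD-dependent isocitrate dehydrogenase of the cycle is a different enzyme built from Idh3a, Idh3b and Idh3g, whose log2 fold changes were 0.07, 0.16 and 0.09 and which were not called. The other 11 of the 12 ran from 0.05 to 0.17 on the TMM scale, all positive, and at the level of library totals none of the 11 was above 0. Citrate synthase, Cs, which opens the cycle, was at 1270.3 and 1294 CPM in sham and at 1361 and 1311 CPM in TAC (log2 fold change 0.06 ± 0.08).

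Succinyl-CoA ligase exists in an ATP-forming version with Sucla2 and a GTP-forming version with Suclg2. Sucla2 was 3.97 and 4.34 times as high as Suclg2 in sham and 3.93 and 3.99 times in TAC on the FPKM scale. The log2 count ratio of these genes differed by −0.02 between the groups, which overlapped.

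The malate-aspartate shuttle carries the electrons of cytosolic NADH into mitochondria. None of its 3 members was called. Got2, the mitochondrial aspartate aminotransferase, was at 788 and 802 CPM in sham and at 898 and 903 CPM in TAC, a log2 change of 0.18 ± 0.07 (edgeR adjusted p = 0.174) and −0.01 on library totals. Mdh1, the cytosolic malate dehydrogenase, with the highest mean FPKM of the 3, was at 1359.5 and 1434 CPM in sham and at 1581 and 1531 CPM in TAC (0.16 ± 0.08, edgeR adjusted p = 0.263). Among the enzymes that refill or drain the cycle, Me3, a mitochondrial malic enzyme, was at 57.5 and 56.2 CPM in sham and at 68.7 and 60.9 CPM in TAC (0.19 ± 0.09, edgeR adjusted p = 0.198). Me1, the cytosolic malic enzyme and the most abundant of the 3 by length (40.1 FPKM), had overlapping groups and a log2 fold change of 0.04 ± 0.07. Pcx was at 29.7 and 30.1 CPM in sham and at 29.2 and 28.4 CPM in TAC (−0.06 ± 0.08).

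Nnt, the transhydrogenase that makes NADPH from NADH across the inner mitochondrial membrane, stood in the tables as 2 gene models on the minus strand of chromosome 13. They were ENSMUSG00000025453 (chr13:119335448-119408997) and ENSMUSG00000116207 (chr13:119335528-119408952), both in GRCm38. All 3339 exonic bases of the second lie in exons of the first, which has 7037, and the counts of both were not whole in every library, so reads were divided between them. ENSMUSG00000025453 was at 297 and 394 CPM in sham and at 309.6 and 219.6 CPM in TAC, with overlapping groups (log2 fold change −0.39 ± 0.18, edgeR adjusted p = 0.211). ENSMUSG00000116207 was at 489 and 338 CPM in sham and at 589 and 636 CPM in TAC, with both TAC libraries above both sham libraries (0.57 ± 0.16, edgeR adjusted p = 0.0803). The models had opposite signs, and both values moved with the libraries used. Without sham 1 they were −0.57 (edgeR adjusted p = 0.0269) and 0.86 (edgeR adjusted p = 0.000234), and without sham 2 they were −0.16 and 0.33. Without TAC 2, ENSMUSG00000025453 was at −0.16, and without TAC 1 it was at −0.66. ENSMUSG00000116207 also passed with the replicate block (edgeR adjusted p = 0.0488) and without the filter on low counts (edgeR adjusted p = 0.00424). The share of the counts given to ENSMUSG00000025453 was 37.8% and 53.9% in sham and 34.5% and 25.7% in TAC, and the sham libraries differed from each other by more than TAC 1 did from sham 1. Summed over both models, Nnt was at 787 and 732 CPM in sham and at 898 and 856 CPM in TAC. The summed log2 fold change was 0.21 ± 0.08 (edgeR adjusted p = 0.152), in a fit added after the 2 models had been seen.

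**Figure D5:**
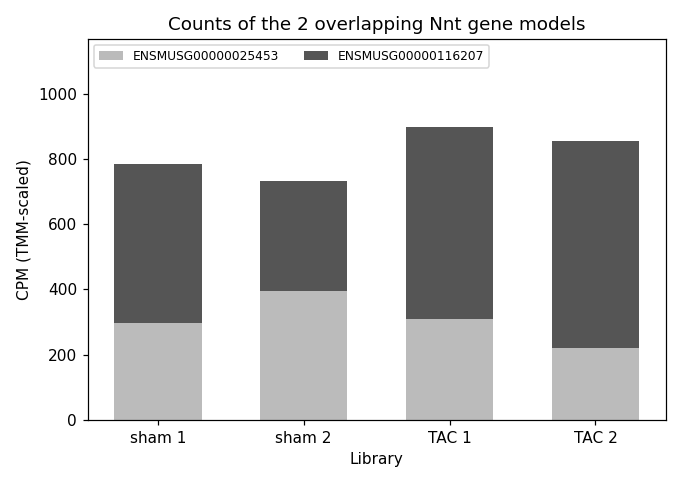
Stacked bars give the TMM-scaled CPM of the 2 overlapping gene models of Nnt in each library. The totals run from 732 to 898 CPM, while the lower segment (ENSMUSG00000025453) takes between 25.7% and 53.9% of the counts.

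Beyond the members, 45 further genes of these pathways were listed, of which 43 were tested. Bcat1 and Bdh2 did not pass the filter. The median log2 fold change of the 43 was 0.08 on the TMM scale (−0.11 on library totals). Both TAC libraries lay above both sham libraries in 18 and below them in 7, which makes 41.9% and 16.3% of the 43 beside the 29.8% and 30.3% of all genes. In each direction 1 gene was called (2.33%), near the 2.58% and 2.43% of all genes. Slc16a1, the plasma membrane carrier of lactate, pyruvate and ketone bodies, was at 293 and 315 CPM in sham and at 380.1 and 397 CPM in TAC. Slc16a1 rose by 27.7%, a log2 change of 0.35 ± 0.08 (edgeR adjusted p = 0.0467), and was at 0.17 on library totals. The call of Slc16a1 held in 6 of 15 settings, which include the reported fit and both fits that were added after the data had been seen. It was lost with the replicate number as a block (edgeR adjusted p = 0.0783). It was also lost when any 1 library was left out, with log2 fold changes of 0.30 to 0.41. Idh1, the cytosolic counterpart of Idh2, was at 40.9 and 48.1 CPM in sham and at 29.7 and 29.9 CPM in TAC. Idh1 fell by 33.0%, a log2 change of −0.58 ± 0.10 (edgeR adjusted p = 0.0265), and was called in 13 of 15 settings, the exceptions being the fits without sham 2 (edgeR adjusted p = 0.0589) and without TAC 1 (edgeR adjusted p = 0.057). In the reported fit, the NADP-dependent isocitrate dehydrogenases of matrix and cytosol were thus called in opposite directions, with Idh2 at 838 FPKM and Idh1 at 16.7 FPKM. On library totals Idh1 was called (−0.76, edgeR adjusted p = 0.0183) and Idh2 was not (0.23, edgeR adjusted p = 0.286).

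A further kinase that was not called was singled out after its values had been seen. Pdk4, the kinase of pyruvate dehydrogenase that fasting and fatty acids induce, was at 366 and 377 CPM in sham and at 452 and 629 CPM in TAC. Its groups did not overlap, at a log2 change of 0.54 ± 0.14 (edgeR adjusted p = 0.0703). It was 0.37 on library totals and passed with DESeq2 (adjusted p = 0.000848). The value of Pdk4 was 0.29 without TAC 2 (edgeR adjusted p = 0.0866) and 0.76 without TAC 1 (edgeR adjusted p = 0.00676). Pdk4 also passed with the replicate block (edgeR adjusted p = 0.0416) and without the filter on low counts (edgeR adjusted p = 0.00379).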

How the data were processed

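Cardiomyocyte RNA of 2 sham and 2 TAC mice was sequenced by the authors, with 1 heart per library, and the titles gave group and replicate number. The authors deposited, per gene, an FPKM value and an expected count, which is estimated and can hold fractions. The submitters' processing notes name Bowtie2 2.2.8, StringTie 1.3.1 and mm10. The sources used here do not give the role of each tool, the treatment of reads shared by genes, the use of strand or the library total in the FPKM. Of the member rows, 6 had counts that were not whole (Pdha1, Bckdha, Bckdhb, Ppm1k and both of Nnt).

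Counts were rounded and analysed in R 4.3.3 with edgeR 4.0.16 (filterByExpr, TMM, glmQLFit, glmQLFTest, no block), with Benjamini-Hochberg adjustment over the 12499 genes tested and a threshold of 0.05. The SE is the size of the log2 fold change divided by the square root of F. The common biological coefficient of variation was 10.5%. Scripts were tested on simulated data. Replicates differed by more than sampling noise (chi-square per degree of freedom 8.08 for sham and 26.7 for TAC). For 2 against 2 libraries, the smallest p of an exact permutation test is 0.333, so every p rests on the spread pooled over genes.

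The members and gene lists were chosen with earlier results of these data known. Named genes were every called member, the member of each role with the largest change and the one with the highest mean FPKM, and every called further pathway gene. Other members were named to complete a ratio, a motif match, a complex or a pathway step (such as Pdk1, Bckdk, Cs, Acat1, Suclg2 and Pcx), after their values had been seen. Alternatives were scaling by total counts (the scaling the study states), totals without the 13 mitochondrial genes, no filter on low counts, DESeq2 1.42.0, voom and trend fits of limma 3.58.1 (the latter on log2 of FPKM plus a pseudocount of 1 or 0.1), a replicate block and leaving out each library. A crossed replicate pairing and a fit with both Nnt rows summed were added after the data had been seen and complete the 14 alternatives. Coordinates are from GENCODE M21 (GRCm38) and promoter windows from RefSeq.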

Additional observations from a re-analysis of the deposited data

How the results depend on the processing

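Pdp1 and Ppm1k were called lower in all 14 alternatives, and Bdh1 and Idh2 had a positive sign in all of them. No called member changed its sign. Of the member rows that were not called, 25 changed sign under total-count scaling and on FPKM, and 11 under totals without the mitochondrial genes.

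Against 2 members called higher, there were 0 under total-count scaling and on log2 FPKM with a pseudocount of 1 or 0.1, 1 under totals without the mitochondrial genes, 3 without the low-count filter and with DESeq2, and 1 to 2 when a library was left out. Against 2 called lower, there were 3 without the low-count filter, 2 to 4 when a library was left out, and 4 without sham 1. The members' median log2 fold change, 0.11 as reported, was −0.08 under total-count scaling, 0.01 under totals without the mitochondrial genes, −0.09 on FPKM with either pseudocount and 0.09 to 0.14 when a library was left out. Against 2 further pathway genes called, there were 1 under total-count scaling, under totals without the mitochondrial genes and on FPKM with either pseudocount, 4 without the low-count filter and with DESeq2, and 1 to 2 when a library was left out. The cause of these shifts was not tested.

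The paper speaks of pairs of sham and TAC mice but does not say whether the replicate numbers mark them. Same-numbered libraries deviated against each other (r = −0.24), so the numbers were not taken as pairs in the reported fit. With 2 libraries per group, this correlation cannot settle the pairing. With the replicate block, 2 members were called higher, ENSMUSG00000116207 of Nnt in place of Idh2, and 3 lower, Pdp2 being added, with 566 genes called in all against 626. In a crossed pairing, chosen after seeing the data, 5 members were called higher, 4 lower and 7 further genes, of 2131 genes in all. The count of all called genes was 301 without TAC 1, 577 without sham 1, 746 without sham 2 and 1336 without TAC 2, 1676 without the filter, 901 with DESeq2, and 214 and 195 on FPKM.

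Limits are the 2 hearts per group and the scaling. The lowest count behind a tested value of a member was 515 (Pdp2 in TAC 1).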
